A study of Mus musculus with 4 samples.

Results

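The clustered protocadherin genes were examined in DNA from mouse left ventricle: the 57 protein-coding genes of their chromosome 18 interval whose symbols start with Pcdha, Pcdhb, Pcdhga, Pcdhgb or Pcdhgc. The alpha genes span 36930285 to 37188897, the beta genes 37264998 to 37521419 and the gamma genes 37661775 to 37841873 (mm10). They were chosen by symbol and position alone, out of 20662 autosomal protein-coding genes, and comprise 14 alpha, 22 beta and 21 gamma members. The interval held 488 CCGG sites listed in any sample and 455 listed in all 4, of which 391 passed a minimum mean MspI signal of 10 and were used. The 4 samples, 1 per group, were infarcted and non-infarcted left ventricle of Neil3-/- mice, then infarcted and non-infarcted left ventricle of wild-type mice. All were C57BL/6 mice of 8 weeks, and all tissue was taken 3 days after myocardial infarction, so the non-infarcted samples also come from animals with an infarct. How many animals went into a sample and how Neil3, a DNA glycosylase gene, was inactivated are not given in the labels.

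Clustered protocadherins are cadherin-like membrane proteins that neurons use to tell their own processes from those of other neurons. Each variable gene has its own promoter and a large first exon that encodes the extracellular part. Alpha and gamma variable exons are spliced to constant exons shared by the whole subcluster, while beta genes have a single coding exon. Neurons choose among the variable promoters at random, with CTCF and cohesin binding at promoters left unmethylated, whereas the C-type genes at the ends of the alpha and gamma subclusters are regulated apart from the others. The heart is not a tissue in which these genes are known for a role, and no RNA was measured here.

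In each sample 3 libraries read tags beside CCGG sites. HpaII cuts a site only when it is unmodified. MspI cuts it in any of the states read here. BGT, the MspI library made after glucosylation, leaves 5-hydroxymethylcytosine uncut. A high HpaII/MspI ratio thus means a less modified site and a low BGT/MspI ratio means more 5-hydroxymethylcytosine, each relative to the rest of the genome. Because the 3 libraries of a sample have nearly equal totals, the ratios are relative and often exceed 100%. Over the 876803 autosomal sites used, summed HpaII was 99.9% of MspI in Neil3-/- infarcted, 98.9% in Neil3-/- non-infarcted, 99.1% in wild-type infarcted and 95.5% in wild-type non-infarcted tissue. No group had a replicate, so no value below carries a standard deviation, and tag counts are not known.

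Between samples, log2 HpaII/MspI over the 391 cluster sites correlated at 0.887 to 0.915 and log2 BGT/MspI at 0.769 to 0.824, as a description over sites that share libraries. A single BGT library, that of the wild-type non-infarcted sample, was unlike the others. Over the cluster sites its log2 signal correlated with MspI of the same sample at 0.410 (0.592 to 0.650 in the other samples) and with HpaII at 0.579 (0.401 to 0.457). Listing differed little: 476 and 477 of the 488 interval sites were listed in Neil3-/- infarcted and non-infarcted tissue, and 472 and 480 in wild-type infarcted and non-infarcted tissue. Neil3 itself, on another chromosome, had 15 and 17 listed sites in Neil3-/- infarcted and non-infarcted tissue, against 17 and 19 in wild-type tissue. The files hold no RNA, so marker expression could not check the tissue label.

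The promoters of the clusters were the least modified part of the interval. Over the 56 sites within 500 bp of a member's start, summed HpaII was 241.6% of MspI in Neil3-/- infarcted, 230.2% in Neil3-/- non-infarcted, 236.1% in wild-type infarcted and 246.0% in wild-type non-infarcted tissue. Beyond 500 and up to 2500 bp downstream, the stretch that holds most of the variable exon, the 128 sites gave 136.6% and 133.7% in Neil3-/- infarcted and non-infarcted tissue and 138.7% and 129.6% in wild-type infarcted and non-infarcted tissue. The starts lay well above the exon stretch in each sample, by far more than the samples differed at the starts.

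The 90 sites lying between variable genes gave ratios of 107.2% to 115.7% over the 4 samples. The 38 sites past the last variable exon, toward the constant exons of the alpha and gamma subclusters, gave 130.1% to 137.6%. The 79 sites outside the 3 subclusters gave 111.5% to 123.3%, and chromosome 18 as a whole gave 92.0% to 95.8%. Starts thus had the highest ratio of the 5 classes in every sample. Relative to all autosomal sites used, the excess was mostly in the HpaII library. At the starts, mean HpaII signal was 91.6 and 87.0 in Neil3-/- infarcted and non-infarcted tissue and 77.8 and 90.9 in wild-type infarcted and non-infarcted tissue, against 37.7 to 44.6 over all autosomal sites used. Mean MspI signal there was 33 to 38, against 38 to 47.

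**Figure D1:**
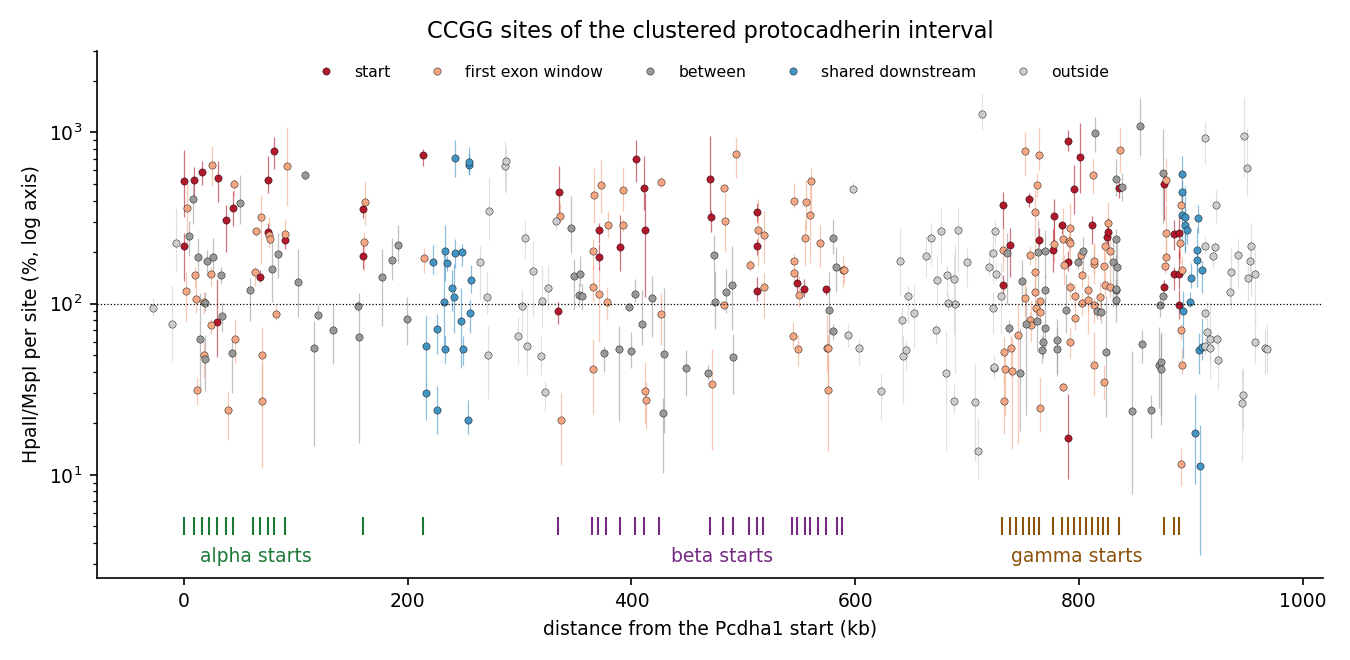
HpaII/MspI ratio (%, log axis) of each of the 391 CCGG sites used, by distance from the Pcdha1 start (kb), with points for the mean of the 4 samples, vertical lines for their range, colours for the class of site and ticks for the member starts. Start sites (dark red) lie mostly above 100%, while sites of the first exon window, between genes, in the shared downstream part and outside spread to both sides of 100%.

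Single sites with high ratios followed the classes. A ratio above 200% in all 4 samples was found at 31 of 56 start sites (55.4%), 31 of 128 first exon sites (24.2%), 8 of 90 sites between genes, 9 of 38 shared downstream sites and 11 of 79 sites outside, against 14.0% of autosomal sites used. A ratio below 50% in all 4 samples was found at 1 start site (1.79%) and at 11 first exon sites (8.59%), against 17.7% of autosomal sites used. It was also found at 3 sites between genes (3.33%), 5 shared downstream sites (13.2%) and 9 sites outside (11.4%). Apart from the starts, these low shares did not follow the order of the classes. The lone low start site lay 297 bp before the start of Pcdhgb4 (chromosome 18, 37720079), with 29.8% and 9.99% in Neil3-/- infarcted and non-infarcted tissue and 9.4% and 16.6% in wild-type infarcted and non-infarcted tissue. A second site of the same gene, 304 bp after the start, had the highest mean ratio of the start sites, with 828% and 1034.0% in Neil3-/- infarcted and non-infarcted tissue and 902% and 780.1% in wild-type infarcted and non-infarcted tissue. Sites with such high ratios had little MspI signal: the 4 highest start sites had mean MspI signals of 10.8 to 14.4, close to the minimum of 10, so their ratios are the least certain.

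By distance, the ratio was high over a narrow stretch. Averaged over the 4 samples, it was 124% at the 7 sites from 1000 to 500 bp before member starts, 211% at the 17 sites in the last 500 bp before the start and 254% at the 39 sites in the first 500 bp after it. It was 168% from 500 to 1000 bp (26 sites), 124% from 1000 to 1500 bp (41 sites) and 129.9% from 1500 to 2500 bp (61 sites). Around the starts of other genes the same bins gave 176%, 209.9%, 190.1%, 200.4%, 171% and 139%. In the first 500 bp after the start, mean MspI signal was 33.1 at members and 56.9 at other genes. Mean HpaII signal there was 84.2 and 108.1, so the members' higher ratio came with lower signal in both libraries. At 1000 to 1500 bp, the members' 4 values of 115% to 134% lay below the 166% to 176% of other genes in every sample. The Hox genes, another family in tandem clusters, had 234% (15 sites) and 263% (17 sites) in the last of these bins.

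**Figure D2:**
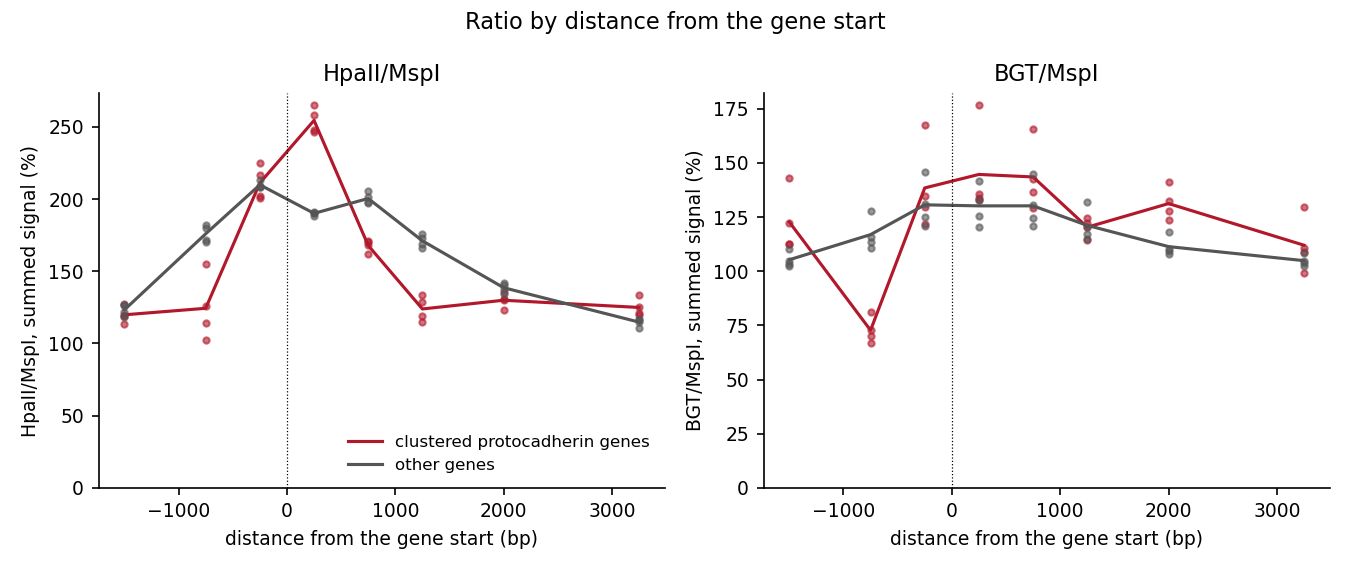
Summed HpaII/MspI (left) and BGT/MspI (right), in percent, by distance from the gene start (bp), for clustered protocadherin genes and other genes, with points for the 4 samples and lines for their mean. The members' HpaII/MspI peaks at 254% just after the start and is 124% at 1000 to 1500 bp, where other genes are at 171%.

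Of the 57 members, 37 had at least 1 used site within 500 bp of the start, 16 at least 2 and only Pcdhb13, Pcdhgb4 and Pcdhgc5 had the planned 3. The 20 without a used site were Pcdha4, Pcdha8, 12 beta genes (Pcdhb2, 4, 8, 10, 11, 12, 14, 15, 18, 19, 21 and 22) and 6 gamma genes (Pcdhga3, Pcdhga9, Pcdhga10, Pcdhgb1, Pcdhgb2 and Pcdhgb7). All 37 measured start windows had a mean ratio above 100%, and 28 were above 200%. Their median was 251%, with a range of 121.6% to 779%, against a median of 211% over 14543 genes. With the number of sites held equal, the medians were 307% for 21 members and 226% for 5399 genes with 1 site, 243% for 13 members and 219.6% for 4362 genes with 2 sites, and 183% for 3 members and 201% for 2776 genes with 3 sites. These sets were not matched for MspI signal. With 1 site its median was 29.4 for members and 32.0 for genes. With 2 sites it was 38.0 and 44.7, and with 3 sites 46.4 and 53.2.

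Among the 12 alpha members measured, the median was 334%. Their median MspI signal was 17.6, against 33.7 in the beta and 40.9 in the gamma members measured, so the alpha ratios are less certain. Pcdha11, a variable alpha gene near the end of its array, was the highest of the 37, with 777% and 786% in Neil3-/- infarcted and non-infarcted tissue and 945% and 609% in wild-type infarcted and non-infarcted tissue, read at a single site 271 bp after the start. Pcdha9 was the lowest alpha gene, at 134% and 133% in Neil3-/- infarcted and non-infarcted tissue and 156% and 146% in wild-type infarcted and non-infarcted tissue. The ranges of these genes do not meet, so members of 1 array differed by more than the samples did. Pcdha12, next in the array, was second lowest, at 208% to 258% over the 4 samples.

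The 10 beta members measured had a median of 214%. Pcdhb6 was highest, at 908% and 511% in Neil3-/- infarcted and non-infarcted tissue and 704% and 665% in wild-type infarcted and non-infarcted tissue. It was read at 1 site with a mean MspI signal of 12.9. The next was Pcdhb9, at 402% and 339.9% in Neil3-/- infarcted and non-infarcted tissue and 348% and 672% in wild-type infarcted and non-infarcted tissue. The 3 lowest of the 37 were genes toward the far end of the beta array: Pcdhb16 ranged over the 4 samples from 112% to 153%, Pcdhb17 from 109% to 139.9% and Pcdhb20 from 112% to 126%.

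The 15 gamma members measured had a median of 251%. Pcdhgb5 led them, with 1139.8% and 515% in Neil3-/- infarcted and non-infarcted tissue and 442% and 777% in wild-type infarcted and non-infarcted tissue. Its single used site had MspI signals of 10.6 and 16.4 in Neil3-/- infarcted and non-infarcted tissue and 17.2 and 13.5 in wild-type infarcted and non-infarcted tissue, so small changes in MspI move the ratio far. Pcdhga12 was steadier, between 414% and 514% in the 4 samples, also at 1 site, with a mean MspI signal of 13.8.

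The C-type genes, which neurons express from both chromosomes rather than by random choice, were split. Pcdhac2 was high, at 787% and 639% in Neil3-/- infarcted and non-infarcted tissue and 802% and 734% in wild-type infarcted and non-infarcted tissue. It was read at 1 site with a mean MspI signal of 10.8, close to the minimum of 10. Pcdhac1 had 210.5% and 235% in Neil3-/- infarcted and non-infarcted tissue and 279.8% and 246% in wild-type infarcted and non-infarcted tissue. The 3 gamma C-type genes were low: Pcdhgc3 ranged from 157% to 176%, Pcdhgc4 from 166% to 202% and Pcdhgc5 from 115% to 169.8%. The 5 C-type genes had a median of 187% and the 32 others 279.6%, but 20 of the others were read at 1 site. With 2 sites, the medians were 187% for 3 C-type genes and 262% for 10 others. In the wider region from 500 bp before to 2500 bp after the start the order was the opposite, with 204% for 3 C-type genes and 164% for 33 others.

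**Figure D3:**
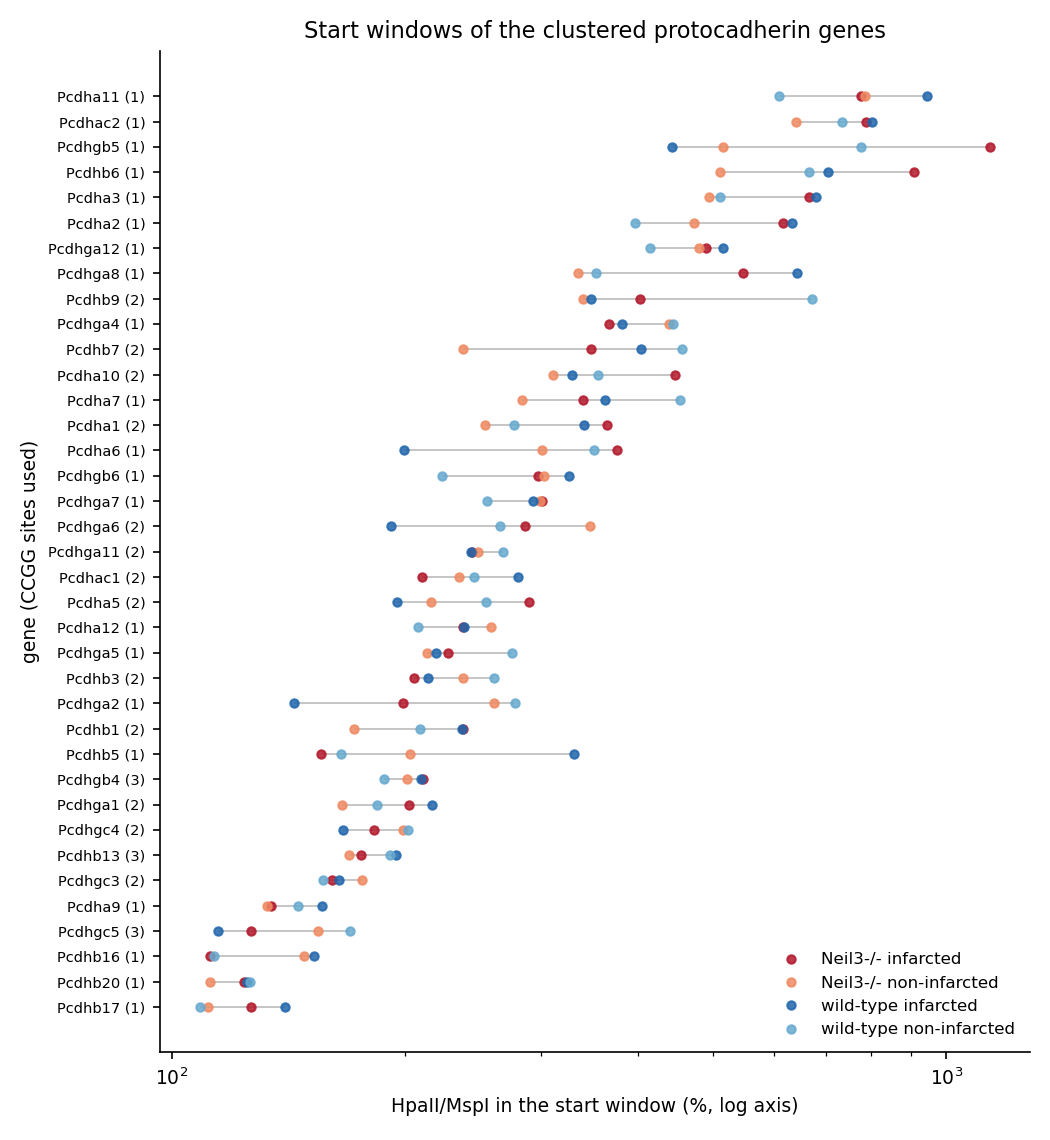
HpaII/MspI ratio (%, log axis) in the start window of the 37 members with a used site, ordered by mean, with points for the 4 samples and the number of sites in parentheses. Every point lies above 100%, from 109% for Pcdhb17 to 1139.8% for Pcdhgb5.

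Within a gene, the start was compared with its own exon stretch in the 34 members that had sites in both. The start had the higher HpaII/MspI in all 4 samples in 24 of them (70.6%), the lower in all 4 in 4 members (Pcdha12, Pcdhb17, Pcdhga12 and Pcdhgc3) and a mixed order in 6. Over 9060 genes with both windows the start was higher in all 4 samples in 49.4% and lower in all 4 in 30.7%. Each window needed at least 1 site, and members and genes were not matched for the number of sites or for MspI signal. The median log2 difference of start minus exon was 0.82 in members and 0.32 over all genes. By subcluster the start was higher throughout in 9 of 11 alpha, 4 of 9 beta and 11 of 14 gamma members.

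The widest steps came from exon stretches with low ratios. In Pcdhb9 the start values given above stood over 13.9% and 26.4% in Neil3-/- infarcted and non-infarcted tissue and 40.4% and 54.6% in wild-type infarcted and non-infarcted tissue, at 1 exon site. In Pcdha6 the start had 376% and 300.3% in Neil3-/- infarcted and non-infarcted tissue and 199% and 351% in wild-type infarcted and non-infarcted tissue. Its exon stretch had 26.1% and 15.9% in Neil3-/- infarcted and non-infarcted tissue and 30.9% and 22.3% in wild-type infarcted and non-infarcted tissue. Pcdhb17 ran the other way, with an exon stretch at 247% to 382% over a start at 109% to 139.9%.

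**Figure D4:**
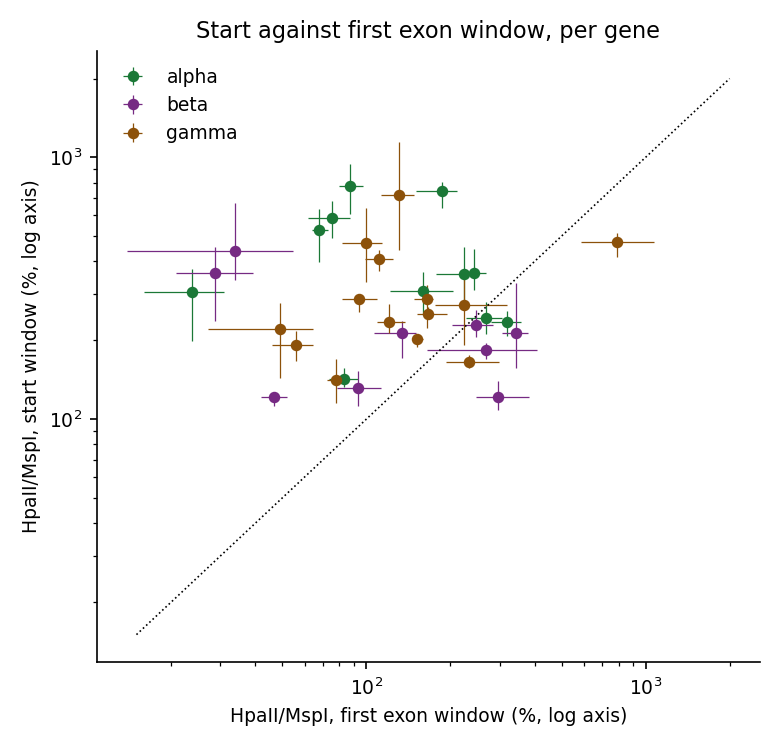
HpaII/MspI ratio of the start window against that of the first exon window of the same gene (%, both axes log), for 34 members coloured by subcluster, with points for the mean and bars for the range of the 4 samples. Points above the dotted line of equality have the less modified start, and 24 members lie above it in all 4 samples.

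BGT/MspI, the ratio that falls where 5-hydroxymethylcytosine is present, was above the genome at the starts, as it was at the starts of other genes. The 56 start sites gave 134.4% and 128.6% in Neil3-/- infarcted and non-infarcted tissue and 133.4% and 173.3% in wild-type infarcted and non-infarcted tissue, against 95.1% to 96.3% over all autosomal sites used. Averaged over the samples, it was 138% in the last 500 bp before member starts and 145% in the first 500 bp after them, against 131% and 130.2% around the starts of other genes. The first exon sites gave 123.9% to 140.1%, sites between genes 96.7% to 112.3%, shared downstream sites 92.4% to 99.6% and outside sites 89.9% to 98.4%. At the starts, the wild-type non-infarcted sample, whose BGT library stands apart, was the highest, and the mean without it was 132%, against 142% with it. Within genes, start and exon stretch did not separate in this ratio as in HpaII/MspI: the start was higher in all 4 samples in 13 of 34 members (38.2%) and lower in 10, against 39.7% and 23.9% over all genes.

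Among members, Pcdha3, Pcdhb9 and Pcdhga6 had the highest mean BGT/MspI at the start, at 289%, 264% and 259%. Pcdha3 had 296% and 298% in Neil3-/- infarcted and non-infarcted tissue and 223% and 341% in wild-type infarcted and non-infarcted tissue. Pcdhga6 had 254% and 316% in Neil3-/- infarcted and non-infarcted tissue and 213% and 255% in wild-type infarcted and non-infarcted tissue. Pcdha12 was the lowest of the 37, at 60.3% and 83.5% in Neil3-/- infarcted and non-infarcted tissue and 9.77% and 68.1% in wild-type infarcted and non-infarcted tissue. That low wild-type infarcted value came from a BGT signal of 2.4 at 1 site, where HpaII read 57.8 and MspI 24.2.

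To compare samples over more sites per gene, a region from 500 bp before to 2500 bp after the start with at least 3 sites was used, a choice made after seeing how few sites the start windows held. It measured 36 members and 11825 genes. The members' median HpaII/MspI there was 175% and 161% in Neil3-/- infarcted and non-infarcted tissue and 172% and 156% in wild-type infarcted and non-infarcted tissue. Over all genes the medians were 190.4%, 189.9%, 196% and 189% in the same samples, so the members as a group sat lower in this wider region. Their start windows sat higher than those of all genes with at least 1 site (median 251% against 211%), at a lower median MspI signal (33.3 against 45.2). With at least 3 sites, as in the wider region, the start windows of the 3 members measured sat lower (183% against 199%). Differences are given as log2 of 1 sample's ratio over the other's, with a size rule of at least 0.5. Each sample enters 2 of the 4 comparisons.

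In the infarct comparisons, the members' median differences in HpaII/MspI were close to those of all genes. Between infarcted and non-infarcted Neil3-/- tissue, the median log2 difference over the 36 members was 0.03, and 1 member (2.78%) passed the size rule upward and 0 downward, against 1.37% and 0.761% of genes. Between infarcted and non-infarcted wild-type tissue the median was 0.05, with 2 members higher and 2 lower (5.56% each), against 3.1% and 1.41% of genes. Those higher were Pcdha1 (0.66) and Pcdhb2 (0.65), and those lower were Pcdhb9 (-0.73) and Pcdhga2 (-0.54). The medians over all genes were 0.01 in Neil3-/- and 0.03 in wild-type tissue. In bulk tissue a change in the mix of cells and a change of modification within cells cannot be told apart. Of 20 leukocyte marker genes, 11 were measured in the same region. Their median log2 infarct difference in HpaII/MspI was 0.16 in Neil3-/- tissue, with 7 above 0, and 0.31 in wild-type tissue, with 8 above 0. The 14 cardiomyocyte marker genes measured of 20 had -0.05, with 4 above 0, and -0.09, with 3 above 0. Over whole genes, the level planned for markers, the medians were 0.06 and 0.17 for 15 leukocyte genes and -0.12 and -0.16 for 20 cardiomyocyte genes. The part of either cell type in the members' values was not tested.

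Between the genotypes, members' medians were also close to 0. Between Neil3-/- and wild-type infarcted tissue, the members' median log2 difference in HpaII/MspI was -0.02 and no member passed the size rule, against 1.18% of genes higher and 1.56% lower. Between Neil3-/- and wild-type non-infarcted tissue the median was 0.02, with 0 members higher and 1 lower, Pcdhb9 at -0.86, against 0.981% and 0.939% of genes. Pcdhb9 encodes a beta protein with a single coding exon, and its wild-type non-infarcted value of 374% was high against 226% in wild-type infarcted tissue, 255% in Neil3-/- infarcted and 207% in Neil3-/- non-infarcted tissue.

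The narrower start windows moved more in both members and genes. A single site was read in 21 of the 37 members but in only 5399 of the 14543 genes. The shares below are not matched for the number of sites. In HpaII/MspI, the infarct comparison in Neil3-/- tissue had 6 of 37 members higher (16.2%) and 0 lower, against 7.12% and 5.82% of 14543 genes. In wild-type tissue it had 5 higher and 5 lower (13.5% each), against 9.73% and 8.20%. Neil3-/- against wild type had 4 members higher and 1 lower in infarcted tissue, against 6.55% and 8.90% of genes, and 0 higher and 4 lower in non-infarcted tissue, against 5.92% and 8.11%. The members with the largest differences were Pcdhgb5, at 1.37 between Neil3-/- and wild-type infarcted tissue, and Pcdhb5, at -1.08 in the same comparison. Pcdhb5 had 156% in Neil3-/- infarcted and 331% in wild-type infarcted tissue at 1 site, with 203% and 165.5% in Neil3-/- and wild-type non-infarcted tissue.

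Pcdhga8 was the member whose start was higher in infarcted tissue past the size rule in both genotypes. It had 547% in infarcted and 335% in non-infarcted Neil3-/- tissue, and 641% in infarcted and 353% in non-infarcted wild-type tissue, log2 differences of 0.71 and 0.86 at 1 site. That site had a mean MspI signal of 11.4, close to the minimum of 10. Over the 3 sites of the wider region the differences were 0.39 and 0.28, short of the rule. The share of all genes past the rule in both genotypes was not computed. Pcdhga2, a gamma A gene, was lower in infarcted tissue in both genotypes, with 199% in infarcted and 261% in non-infarcted Neil3-/- tissue and 144% in infarcted and 278% in non-infarcted wild-type tissue, log2 differences of -0.39 and -0.95.

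In BGT/MspI, the larger counts came from comparisons that use the wild-type non-infarcted sample. There, 7 members were lower and 0 higher in infarcted than in non-infarcted wild-type tissue (19.4% lower, against 19.1% of genes lower and 1.59% higher), with a median of -0.19 over members and -0.24 over genes. Between Neil3-/- and wild-type non-infarcted tissue, 8 members were lower and 0 higher (22.2% lower, against 10.8% of genes lower and 2.05% higher), with medians of -0.24 and -0.14. In the comparisons without that sample, between infarcted and non-infarcted Neil3-/- tissue 1 member was higher and 1 lower, against 1.03% and 2.27% of genes, and between Neil3-/- and wild-type infarcted tissue 0 were higher and 1 lower, against 2.81% and 1.40%.

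In the start windows, 19 of 37 members were lower and 1 higher in BGT/MspI in infarcted than in non-infarcted wild-type tissue (51.4% lower, against 31.7% of genes lower and 5.94% higher). Likewise 20 were lower and 0 higher in Neil3-/- than in wild-type non-infarcted tissue (54.1% lower, against 22.1% of genes lower and 6.68% higher). Between infarcted and non-infarcted Neil3-/- tissue, 5 were higher and 0 lower, against 6.04% and 10.8% of genes, and between Neil3-/- and wild-type infarcted tissue 9 were higher and 5 lower, against 10.8% and 7.64%. Relative to the median over all genes, the first 2 of these counts were 11 lower and 4 higher (29.7% lower, against 15.5% of genes) and 10 lower and 1 higher (27.0% lower, against 14.0% of genes). The shares in these windows are not matched for the number of sites, and the part of the library that stands apart in these counts was not tested. Pcdhga11, at -0.96 between Neil3-/- and wild-type non-infarcted tissue, had 154% and 115.5% in Neil3-/- infarcted and non-infarcted tissue and 149% and 225% in wild-type infarcted and non-infarcted tissue.

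**Figure D5:**
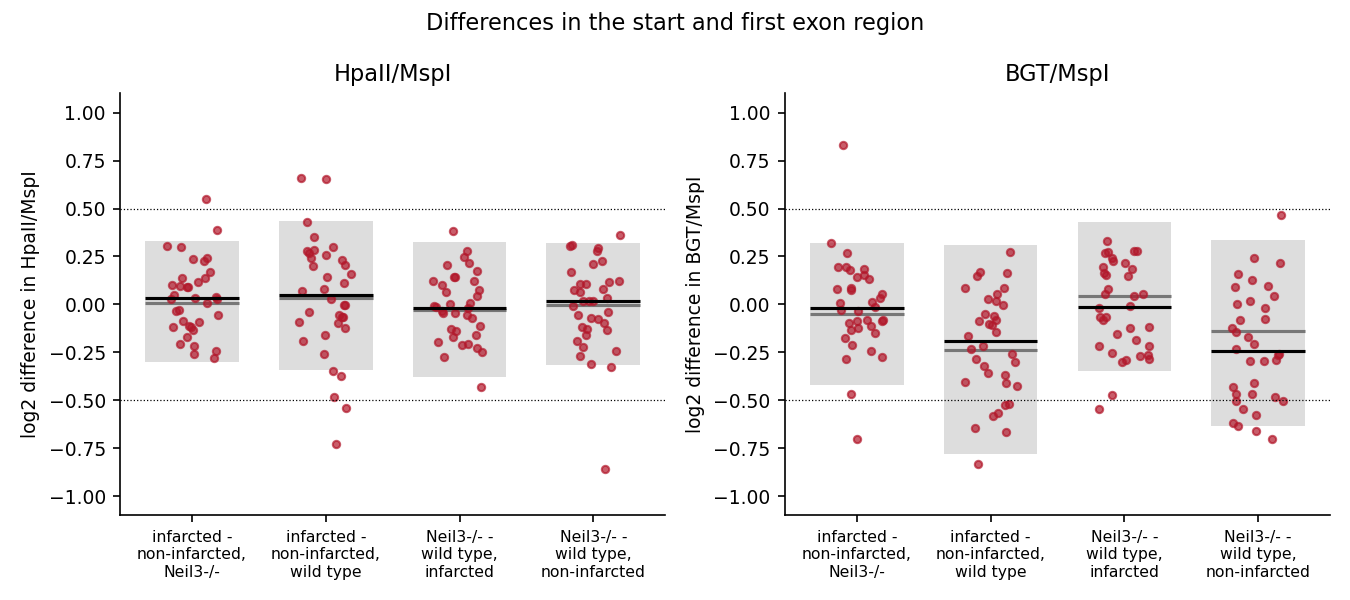
Log2 differences in HpaII/MspI (left) and BGT/MspI (right) in the start and first exon region for the 36 members measured (red points), with black lines for their median, grey bands for the 5th to 95th percentile and grey lines for the median of 11825 genes, and dotted lines at the size rule of 0.5. Medians of HpaII/MspI lie between -0.02 and 0.05, and the BGT/MspI medians of -0.19 and -0.24 belong to the comparisons that use the wild-type non-infarcted sample.

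An additive limma model of infarct and genotype was fitted to all sites, which leaves 1 degree of freedom for error. Its SEs and p-values rest mostly on variance pooled over all sites, or over all genes in the fits below. They measure little of the error of a single site or gene. With Benjamini-Hochberg adjustment the model called none of the 391 cluster sites. In HpaII/MspI it called 0 of 876803 sites for either factor, and in BGT/MspI 280 for infarct (0.0319%) and 314 for genotype (0.0358%), none of them in the interval. At an unadjusted limma p under 0.05 stood 26 cluster sites for infarct (19 higher and 7 lower) and 21 for genotype in HpaII/MspI, against 7.15% and 5.83% of all sites. In BGT/MspI it was 27 for infarct (8 higher and 19 lower) and 29 for genotype, against 6.62% and 6.49%. The lowest adjusted limma p of a cluster site was 0.242, for infarct in BGT/MspI at 37020261, the Pcdha12 start site, with a log2 difference of -1.41 (SE 0.41). Infarcted minus non-infarcted, the Pcdha12 start window differed by -0.47 in Neil3-/- and by -2.80 in wild-type tissue. The wild-type difference rests on the low BGT signal given above.

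By the size rule, the planned start windows with 3 sites gave few calls among their 3 members. In HpaII/MspI, 1 member, Pcdhgc5, was lower in infarcted than in non-infarcted wild-type tissue (-0.56, against 3.95% of 4782 genes past the rule in either direction), and none passed in the other comparisons, against 1.80%, 3.12% and 2.07% of genes. In BGT/MspI, Pcdhgb4 was lower in infarcted than in non-infarcted wild-type tissue (-0.54, against 22.0% of genes), Pcdhgb4 and Pcdhb13 were lower in Neil3-/- than in wild-type non-infarcted tissue (-0.58 and -0.68, against 12.3%), and none passed in the other comparisons, against 3.81% and 5.12%.

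In these windows, limma called 0 of 3 members, against 10 of 4782 genes for infarct (0.209%) and 8 for genotype (0.167%) in HpaII/MspI, and 6 (0.125%) and 0 in BGT/MspI. Pcdhgc5 came nearest, for infarct in HpaII/MspI, with a log2 difference of -0.42 (SE 0.12) and an adjusted p of 0.156. It had 127% in infarcted and 154% in non-infarcted Neil3-/- tissue, and 115% in infarcted and 169.8% in non-infarcted wild-type tissue.

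In the start and first exon region the model called 1 of 36 members, Pcdhb2, for infarct in HpaII/MspI, against 16 of 11825 genes (0.135%). Pcdhb2 (chromosome 18, 37294840 to 37297614) had 170.5% in infarcted and 116% in non-infarcted Neil3-/- tissue, and 157% in infarcted and 99.6% in non-infarcted wild-type tissue. Both infarcted samples lay above both non-infarcted ones. The log2 difference was 0.60 (SE 0.12) with an adjusted limma p of 0.0399. The call was lost with only infarct in the model (adjusted p = 0.260), with no trend of variance on level (0.153) and when the 500 bp before the start were left out for all genes (0.352), a step that changes none of the Pcdhb2 sites. In BGT/MspI Pcdhb2 had a log2 difference of 0.12 and an adjusted p of 0.816.

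Pcdhb2 was read at 4 sites, all within the gene's span. The site 1033 bp after the start had HpaII/MspI of 62.3% in infarcted and 24.7% in non-infarcted Neil3-/- tissue, and 56.5% in infarcted and 22.7% in non-infarcted wild-type tissue. The site at 1975 bp had 618% and 296% in Neil3-/- infarcted and non-infarcted tissue and 507% and 307% in wild-type infarcted and non-infarcted tissue, with a mean MspI signal of 11.9. At 1221 bp the values were 168% and 101.8% in Neil3-/- infarcted and non-infarcted tissue and 122% and 108% in wild-type infarcted and non-infarcted tissue. At 858 bp the infarcted sample was lower in Neil3-/- tissue (228% against 238%) and higher in wild-type tissue (188% against 156%). A further site 50 bp before the start had a mean MspI signal of 8.08 and was not used.

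Genotype gave no called member in this region in HpaII/MspI, against 7 of 11825 genes (0.0592%), with 0 of 36 members at an unadjusted limma p under 0.05, against 6.07% of genes. In BGT/MspI, 0 members were called for either factor, against 0 genes for infarct and 2 for genotype (0.0169%), with 3 members (8.33%) at an unadjusted p under 0.05 for each factor, against 9.07% of genes for infarct and 4.43% for genotype.

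Related genes were read in the same region. The 8 non-clustered protocadherins measured of 10, which lie apart from the clusters and have no shared constant exons, had median HpaII/MspI ratios of 208.5% and 211% in Neil3-/- infarcted and non-infarcted tissue and 242% and 228% in wild-type infarcted and non-infarcted tissue. In HpaII/MspI, none of the 8 passed the size rule for infarct in either genotype. In BGT/MspI none passed in Neil3-/- tissue, while 3 were lower in infarcted than in non-infarcted wild-type tissue, against 19.1% of genes. That comparison uses the wild-type non-infarcted BGT library, which stands apart. The 10 germline genes measured, which are methylated in somatic tissue, had medians of 70.5% to 73.5%. Of the genes that act on the clusters, Ctcf had 149% and 179% in Neil3-/- infarcted and non-infarcted tissue and 154% and 168% in wild-type infarcted and non-infarcted tissue. Smchd1, which silences clustered protocadherin genes in mice, had 251% and 239.7% in Neil3-/- infarcted and non-infarcted tissue and 256% and 275% in wild-type infarcted and non-infarcted tissue. Dnmt1, the maintenance methyltransferase gene, was the 1 gene of 8 in its list past the size rule in HpaII/MspI between Neil3-/- and wild-type infarcted tissue. It had 111% and 73.5%, a log2 difference of 0.59, each value from 1 sample. Of all genes, 1.18% were higher and 1.56% lower by this rule in that comparison.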

How the data were processed

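The authors deposited, per the file headers, a normalized signal for each CCGG site in 3 libraries per sample (HpaII, BGT and MspI); the build is mm10, per the submitters' processing notes. Aligner, normalization and pooling: not given in the sources used here. Ratios of summed signal were computed in Python 3.11.15 (numpy 2.4.6, pandas 2.3.3) over autosomal sites listed in all 4 samples with a mean MspI signal of at least 10. Genes come from a RefSeq table of GRCm38.p6 without exons; members were taken as read toward rising coordinates, other genes by RefSeq strand or, without it, by the end with more sites, and 3 read-through genes were left out. Limma 3.58.1 (R 4.3.3) used empirical Bayes with trend and, for sites, a pseudocount of 1; it was tested on simulated data. Named genes were the C-type members, the extremes of level and difference in windows with at least 1 site, and members past a threshold; the others named were chosen after their values were seen. The members and lists were chosen with earlier results of these data known.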

Additional observations from a re-analysis of the deposited data

Results flagged for a closer look

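In 4 start windows, of 37 members with at least 1 site, the infarct difference ran in opposite directions in the 2 genotypes, past a log2 difference of 0.5 in each. The share of all genes with such opposite differences was not computed, so the count cannot be called particular to the members. The difference between genotypes was not tested, since each rests on 4 single samples. For Pcdhgb5, HpaII/MspI was higher by 1.15 in infarcted than in non-infarcted Neil3-/- tissue and differed by -0.813 in wild-type tissue, at 1 used site of low MspI signal. A neighbouring Pcdhgb5 site 309 bp after the start, not used because its mean MspI signal was 9.8, had 994% in infarcted and 562% in non-infarcted Neil3-/- tissue, and 912% in infarcted and 607% in non-infarcted wild-type tissue.

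In BGT/MspI, Pcdha2 differed by 0.67 in Neil3-/- tissue and by -0.809 in wild-type tissue, Pcdhb6 by 0.553 and -0.803, and Pcdhga1 by 0.64 and -0.831, each infarcted minus non-infarcted. The 3 wild-type differences use the wild-type non-infarcted BGT library, which stands apart from the others.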

How the results depend on the processing

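The start class had the highest mean HpaII/MspI of the 5 classes under every setting tried. Without the minimum signal the classes had 273% at starts, 144% in the first exon window, 122% between genes, 136% shared downstream and 135% outside, with 99.2% for BGT/MspI outside. With a minimum of 20 they had 207%, 113%, 90.8%, 107% and 86.5%, and BGT/MspI was 122% in the first exon window, 96.2% between, 88.4% shared downstream and 84.0% outside. With every library scaled to the same total, HpaII/MspI was 228.5% at starts, 129% in the first exon window, 127% shared downstream and 113% outside. As the median of per-site ratios it was 279% at starts, 151% in the first exon window, 100.3% between, 142% shared downstream and 108% outside, with 99.3% for BGT/MspI shared downstream. The cause of these shifts was not tested.

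The members' median start window HpaII/MspI, averaged over the 4 samples, was 182%, and 162% with a minimum of 20, 201% with windows of 1000 bp and 262% with at least 1 site. No member had 3 sites in windows of 250 bp. The median infarct difference in HpaII/MspI over those 3 members, 0.05 in Neil3-/- and 0.03 in wild-type tissue, was -0.12 and -0.27 with a minimum of 20, and -0.088 and 0.22 as the median of per-site ratios.

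With a rule of 20 percentage points in place of the log2 rule, counts in start windows of 3 members were 1 (infarct, Neil3-/-), 2 (infarct, wild type) and 1 (Neil3-/-, non-infarcted) in HpaII/MspI, against 42.1%, 49.8% and 42.5% of genes. In BGT/MspI they were 3 (infarct, wild type), 1 (Neil3-/-, infarcted) and 2 (Neil3-/-, non-infarcted), against 57.7%, 35.5% and 48.0% of genes. In the wider region they were, of 36 members, 12, 18, 12 and 15 in HpaII/MspI and 9, 20, 14 and 23 in BGT/MspI, for infarct in Neil3-/-, infarct in wild type, Neil3-/- in infarcted and Neil3-/- in non-infarcted tissue, against 37.4% to 46.6% of genes in HpaII/MspI and 29.6%, 57.0%, 30.2% and 47.6% in BGT/MspI. Relative to the median over all genes, BGT/MspI start counts were 0 (infarct, wild type) and 1 (Neil3-/-, non-infarcted), and in the wider region 2 (infarct, wild type), 2 (Neil3-/-, infarcted) and 3 (Neil3-/-, non-infarcted), or 5.56%, 5.56% and 8.33% of members against 12.5%, 3.88% and 9.23% of genes. In HpaII/MspI the wider region counts by this rule were 1 (infarct, Neil3-/-), 5 (infarct, wild type), 0 (Neil3-/-, infarcted) and 1 (Neil3-/-, non-infarcted). They stood against 2.12%, 4.4%, 2.76% and 1.95% of genes. The limma call of Pcdhb2 (adjusted p = 0.0399, and 0.0184 with no minimum signal) fell to 0 members with only infarct in the model (0.260), with no trend (0.153), without the 500 bp before the start (0.352) and with a minimum of 20, where it had too few sites. Over all settings the whole-table limma counts ran from 0 to 38 genes for infarct in this region in HpaII/MspI, and from 1 to 280 and from 0 to 314 sites for infarct and genotype in BGT/MspI.

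No paired analysis was possible because each group had 1 sample and the model already holds both factors. No sample was left out of the fit, since 3 samples leave no residual degree of freedom. The wider region and the windows of at least 1 site in the fit were chosen after seeing the data. Depth is unknown, and most start windows of members rest on 1 site, so differences between single samples there have no error.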
